A study of Mus musculus with 4 samples.

Results

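The genes described here are 10 regulators and receptors of lymphoid priming, the low-level expression of lymphoid genes in cells that have not yet committed to a lineage. They were taken by name from the 23906 gene symbols of the series, and all 10 are listed in every sample: the Ikaros family genes *Ikzf1*, *Ikzf2* and *Ikzf3*, the transcription factor genes *Bcl11a*, *Satb1*, *Gata3* and *Tcf7*, and the receptor genes *Flt3*, *Il7r* and *Notch1*. RNA was sequenced from LSK-SLAM cells, a phenotype that enriches for haematopoietic stem cells (HSCs): lineage-negative, Sca1-positive, cKit-positive, CD150-positive and CD48-negative. All cells came from BRE-GFP transgenic mice on a C57BL/6 background, in which a BMP-responsive element drives GFP, so that GFP marks cells with BMP signalling at the time of the sort. The 4 groups are GFP+ and GFP- LSK-SLAM cells of the fetal liver (FL) at embryonic day 14, and GFP+ and GFP- LSK-SLAM cells of adult bone marrow (BM), with 1 sample each. The transgene was carried by every group, a single transgenic line was used for the data shown, and the number of embryos or mice in a sample is not given in the sources used here.

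Lymphoid priming begins when multipotent progenitors begin to express FLT3, the receptor tyrosine kinase for FLT3 ligand, and it leads to cells that need interleukin-7 (IL-7) and its receptor alpha chain, the product of *Il7r*. Ikaros, the zinc finger protein encoded by *Ikzf1*, opens this programme in multipotent cells, while its relatives Helios (*Ikzf2*) and Aiolos (*Ikzf3*) bind similar DNA sequences in other cells, Aiolos mainly in B cells and other mature lymphocytes. Notch1 signalling turns progenitors towards the T cell fate, where *Tcf7* (TCF-1) and *Gata3* act early. *Bcl11a* is needed for B cell development, and SATB1 organizes chromatin in thymocytes.

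The values are FPKM, sequenced fragments scaled to transcript length, so that levels can be set side by side between genes. Library size was scaled by geometric normalization across the samples, and FPKM sums ran from 541453 (FL GFP-) to 1000848 (BM GFP+). Each group has 1 sample, so no difference below has a replicate check and none was tested. A gene is counted as higher or lower where its FPKM in 1 sample was more than 2 times that in the other, the study's own threshold, and where either of the samples compared reached an FPKM of 1. Differences on a log scale are of log2(FPKM + 1), which understates changes at low FPKM. The files hold no read counts, and the counting error of a value is unknown.

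The RNA of the BM samples held transcripts of mature cells that the sort was set to remove, and for most lists more of them in the GFP+ sample. The sum over 6 megakaryocyte markers was lower there, at 389.5 against 463.5. For 9 neutrophil markers the FPKM sums were 62271 in the GFP+ and 17455 in the GFP- sample of the BM, against 587.4 and 310.5 in the FL. This list mixes 2 patterns. *Elane*, *Mpo*, *Prtn3* and *Ctsg*, primary granule genes that myeloid progenitors also express, had ratios of 0.943 to 1.31 between the BM fractions. The other 5 had ratios of 3.96 to 8.97. For 7 erythroid markers they were 20542 and 3170 in the BM and 982.8 and 893.7 in the FL. The FPKM of 9 B cell marker genes summed to 3783 in the GFP+ and 1061 in the GFP- sample of the BM, against 96.6 and 44.3 in GFP+ and GFP- cells of the FL. For 9 T cell markers the sums were 189.4 and 61.8 in the BM and 14.6 and 16.1 in the FL. All 9 genes of each list were above 0 in both BM samples, whereas in the FL the T cell receptor complex genes *Cd3e* and *Cd3g* were listed at 0 and *Cd3d* was at most 0.453, with *Lck* at 8.84 and 10.3 and *Cd4* at 3.68 and 4.35. Of 10 HSC marker genes, 9 were lower in BM GFP+ than in BM GFP- cells by the same threshold. That threshold called 21.1% of all genes compared higher and 19.6% lower in BM GFP+ cells, and 17.9% and 26.8% in FL GFP+ cells. *Procr*, which encodes the HSC surface protein EPCR, was listed at 0 in BM GFP+ cells, against 60.8 in BM GFP- cells. A value of 0 can be a missed gene: fewer genes were above 0 in BM GFP+ (13489) than in BM GFP- cells (17345). The tissue labels fitted 6 fetal HSC genes, among them *Lin28b* and *Igf2bp1*, all of which were higher in the FL in both fractions. *Id1*, a direct target of BMP signalling, had an FPKM of 109.1 in FL GFP+ against 56.5 in FL GFP- cells and 70.4 against 17.5 in the BM, and of 5 BMP targets compared 4 were higher and 1 lower in BM GFP+ cells, with 0 higher and 1 lower in FL GFP+ cells. In bulk RNA, fewer cells of a type and less RNA per cell cannot be told apart.

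RefSeq (build GRCm38.p6) gave promoter windows for 8 of the 10 genes, and the 250 bases before the start are shown for the receptor genes, which cover the patterns described below: *Notch1* had the largest ratio between the BM fractions, *Il7r* was at or near 0 in the FL, and *Flt3* differed in the FL but little in the BM. Windows are read 5′ to 3′ on the minus strand, and capitals mark CAGNTG, the E-box that E proteins bind, on either strand. The other motifs searched on both strands were TGGGAA, a core that Ikaros proteins bind, and GGCGCC, a GC-rich core found in BMP response elements; no printed window holds either, and no motifs overlapped in any window of these genes.
Flt3, chr5:147400490-147400739: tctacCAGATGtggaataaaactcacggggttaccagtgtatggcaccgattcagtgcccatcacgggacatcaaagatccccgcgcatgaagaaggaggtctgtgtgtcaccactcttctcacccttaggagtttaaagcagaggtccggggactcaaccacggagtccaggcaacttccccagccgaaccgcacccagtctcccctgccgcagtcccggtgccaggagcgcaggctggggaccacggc
Il7r, chr15:9529877-9530126: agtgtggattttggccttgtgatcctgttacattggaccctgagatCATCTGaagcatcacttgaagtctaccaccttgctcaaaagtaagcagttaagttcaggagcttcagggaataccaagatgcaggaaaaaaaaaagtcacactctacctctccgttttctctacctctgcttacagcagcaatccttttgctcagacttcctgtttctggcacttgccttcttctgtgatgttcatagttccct
Notch1, chr2:26503823-26504072: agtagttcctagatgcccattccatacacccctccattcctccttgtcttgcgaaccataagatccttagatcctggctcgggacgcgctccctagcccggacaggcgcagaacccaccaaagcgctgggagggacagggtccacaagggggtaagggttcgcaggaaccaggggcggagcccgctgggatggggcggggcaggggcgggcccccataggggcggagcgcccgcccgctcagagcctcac
The window of *Il7r* holds 1 CpG, fewer than most windows (7.86% of all have fewer), that of *Flt3* holds 13 and that of *Notch1* 16, against a median of 6 over 32841 windows of this length. Over the 14 windows of the 8 genes, 4 held CAGNTG, 2 TGGGAA and 5 GGCGCC, and the shares of all windows that hold them are 44.8%, 21.6% and 9.59%. The most CpG-dense windows, of *Ikzf1* with 44 CpG, *Satb1* with 41 and *Tcf7* with 37, each hold GGCGCC. FPKM are given per gene, so which start was used is not known, and a motif match is a description of the letters only.

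The Ikaros family genes had different patterns over the 4 samples. The FPKM of *Ikzf1* was 9.81 in the GFP+ and 29.3 in the GFP- sample of the FL, with 33.3 and 30.6 in those of the BM. FL GFP+ cells thus stood 2.99-fold below FL GFP- cells, and the remaining samples lay within a narrow range. For *Ikzf2* the GFP+ and GFP- values were 12.2 and 11.5 in the FL, but 0.588 and 0.920 in the BM. Helios mRNA was therefore a feature of the FL samples, 20.8-fold higher in the GFP+ and 12.4-fold higher in the GFP- fraction than in the same fraction of the BM. The FL fractions did not differ past the threshold. The BM fractions were not compared, as both values were under an FPKM of 1. *Ikzf3* was listed at 0 in both FL samples and reached 38.1 in the GFP+ and 6.50 in the GFP- cells of the BM, a 5.86-fold difference between the BM fractions. Aiolos mRNA was thus seen in the BM only, and the order of *Ikzf2* and *Ikzf3* was opposite in the tissues.

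The make-up of the family followed from this. Of the FPKM summed over *Ikzf1* to *Ikzf5*, *Ikzf2* took 42.2% (GFP+) and 21.6% (GFP-) in the FL but 0.767% and 1.95% in the BM. *Ikzf3* took 49.7% of the sum in the GFP+ and 13.8% in the GFP- sample of the BM. *Ikzf1* took 33.8% and 55.2% in the FL fractions and 43.5% and 64.7% in the BM fractions, GFP+ first, and was thus the leading member in the GFP- cells of both tissues but not in the GFP+ cells of either. *Ikzf5*, which encodes Pegasus, took 6.12% in BM GFP+ cells and 18.7% to 24.0% in the others, and *Ikzf4* (Eos) at most 0.927%.

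**Figure D1:**
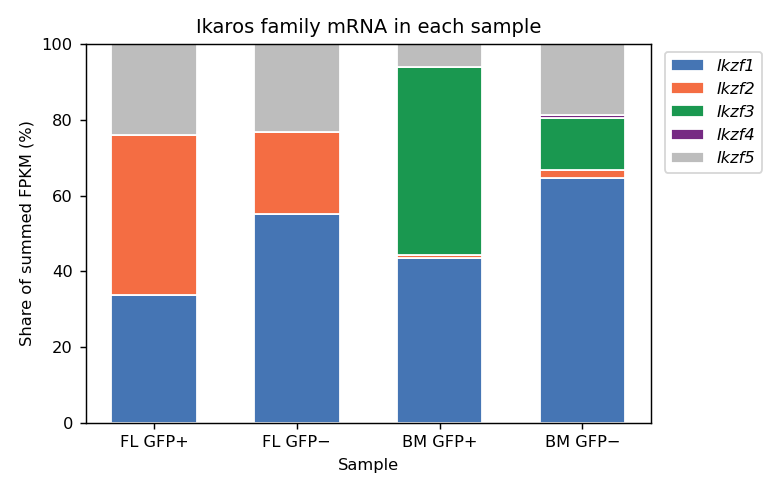
Share of the FPKM summed over the Ikaros family genes (vertical axis, percent) in each of the 4 samples (bars, 1 sample each), split by gene. The Ikzf2 share is 42.2% and 21.6% in the FL samples and under 2% in the BM samples, while Ikzf3 is at 0 in the FL and takes 49.7% (GFP+) and 13.8% (GFP-) in the BM.

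Among the other transcription factors, *Bcl11a* was the most evenly expressed. Its FPKM was 80.9 in the GFP+ and 51.8 in the GFP- sample of the FL, against 43.05 and 35.5 for the same fractions of the BM. It had the highest FPKM of the 10 genes in every sample but BM GFP-, where *Flt3* was above it, and its ratio stayed under the threshold in all 4 comparisons, except that at a common FPKM sum it counted as lower in BM GFP+ than in FL GFP+ cells (−1.51 in place of −0.90 on the log2(FPKM + 1) scale). The 4 values spanned 1.17 on the log2(FPKM + 1) scale, the smallest range among the 10 genes.

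*Satb1* and *Gata3* were seen in all samples and were highest in BM GFP+ cells. For *Satb1* the FPKM of GFP+ and GFP- cells was 3.02 and 1.55 in the FL, against 12.5 and 1.93 in the BM. The BM GFP+ sample was 6.51-fold above BM GFP- cells, and the FL GFP+ sample 1.95-fold above FL GFP- cells, just inside the threshold. *Gata3* had 6.92, 5.0, 10.8 and 3.39 in the same order, which gave a 3.19-fold difference in the BM and a 1.38-fold difference in the FL. Between the GFP- fractions of the tissues neither gene passed the threshold, with log2(FPKM + 1) differences, BM minus FL, of 0.20 for *Satb1* (−0.075 at a common FPKM sum) and −0.45 for *Gata3*. In RefSeq the span of *Gata3* overlaps the genes *4930412O13Rik* and *9230102O04Rik*, whose highest FPKM was 0.846.

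*Tcf7* had the pattern of *Ikzf3* at a lower level. It was listed at 0 in both FL samples, and an FPKM of 7.76 was found in the GFP+ and 1.17 in the GFP- fraction of the BM, a 6.62-fold difference. The BM GFP+ level lay at percentile 45.3 of the genes detected in that sample and the BM GFP- level at percentile 35.1. Its span overlaps *Skp1*, listed as *Skp1a* with an FPKM of up to 333.4, and the counting is not stated to use strand.

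**Figure D2:**
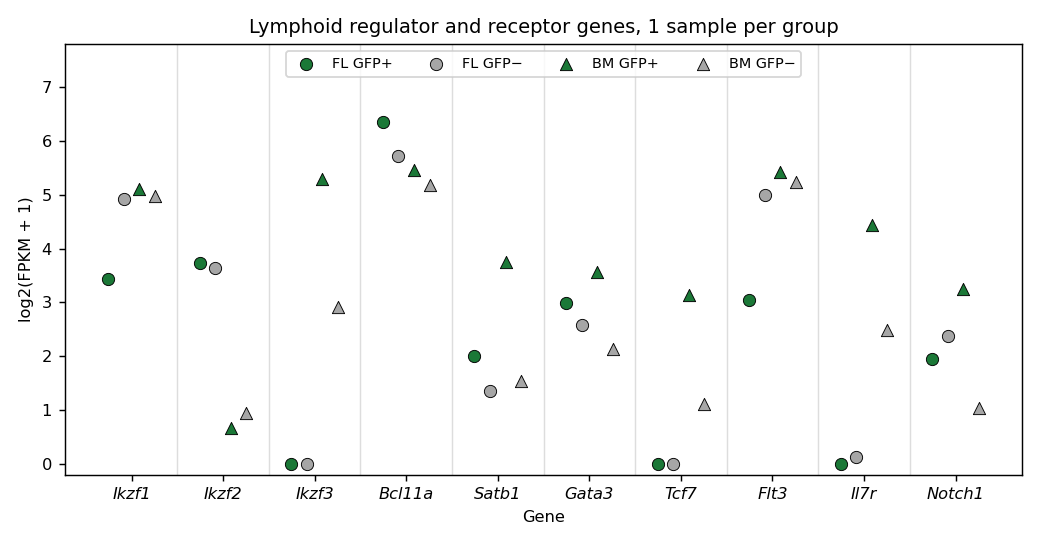
Level of each of the 10 genes, as log2(FPKM + 1) on the vertical axis, in FL (circles) and BM (triangles) samples of GFP+ (green) and GFP- (grey) cells, 1 sample per point and no error. Ikzf3, Tcf7 and Il7r sit at or near 0 in the FL and above 1 in the BM, Ikzf2 has the opposite order, and Flt3 and Ikzf1 are low in FL GFP+ cells alone.

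The receptor genes differed among themselves as well. The GFP+ and GFP- values of *Flt3* were 7.29 and 31.0 in the FL, but 41.7 and 36.8 in the BM. As for *Ikzf1*, the FL GFP+ sample alone was low, 4.25-fold below FL GFP- and 5.72-fold below BM GFP+ cells, and the BM fractions differed 1.13-fold. The small BM differences of *Flt3*, *Ikzf1* (1.09-fold) and *Bcl11a* (1.21-fold) do not keep their direction when the samples are brought to a common FPKM sum, which makes them −0.27, −0.32 and −0.17 on the log2(FPKM + 1) scale. Markers of other cells also differed between the FL fractions. The FPKM of 5 hepatocyte genes summed to 326.7 in FL GFP+ against 23.7 in FL GFP- cells, with 4 of 5 more than 2-fold higher (*Alb*, the albumin gene, at 139.5 against 9.49). All 3 genes compared of those whose products the sorts excluded in 1 or both tissues were higher too, with *Cd48* at 51.4 against 17.4, *Ly6c2* at 16.2 against 0.635 and *Itgam*, whose product CD11b was stained in the BM sort only, at 13.0 against 5.20. Such transcripts were not confined to the FL. *Cd48* reached an FPKM of 266.8 (GFP+) and 126.5 (GFP-) in the BM, and *Ly6c2* 1102 and 604.8. *Itgam* had 39.0 and 9.11 there, the latter below its FL GFP+ value. The 5 listed genes of excluded products summed to 1444.5 and 753.8 in the BM, against 80.6 and 23.3 in the FL, GFP+ first. The part of these other cells in the lower *Flt3* and *Ikzf1* of FL GFP+ cells was not tested. The gene whose 4 log2(FPKM + 1) values lay nearest to those of *Flt3* was *Tssc1*, at a Euclidean distance of 0.15 over the 4 samples, followed by *Aaed1* at 0.22 and *Coasy* at 0.28. For *Ikzf1* the nearest were *1810030O07Rik* at 0.28, *Mettl6* at 0.31 and *Acad9* at 0.34, out of 10566 genes that reached an FPKM of 5 in any sample. With 4 points such likeness is only a description of levels.

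*Il7r* was a BM gene in these samples. In the FL it was listed at 0 in GFP+ cells and at an FPKM of 0.0996 in GFP- cells, and in the BM it reached 20.6 and 4.64. The BM fractions differed 4.44-fold, and the GFP- fractions of the tissues 46.6-fold, over an FL value near 0. A value of 0 can be a missed gene: of the 6687 genes that reached an FPKM of 5 in each of the other 3 samples, 2.15% were at 0 in FL GFP+ cells, and in FL GFP- cells 0.221% of 6339 were.

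*Notch1* had the largest ratio between the BM fractions. Its FPKM was 8.53 in the GFP+ and 1.06 in the GFP- sample of the BM, with 2.87 and 4.19 in those of the FL, so BM GFP+ cells were 8.06-fold above BM GFP- cells. In the FL the GFP- sample was the higher, by 1.46-fold, within the threshold. The highest and the lowest of its 4 values were thus the fractions of the BM, with the FL samples between them. Between the GFP- fractions it was 3.96-fold lower in the BM, and between the GFP+ fractions 2.98-fold higher there, a difference that did not pass the threshold at a common FPKM sum (0.77 in place of 1.30 on the log2(FPKM + 1) scale).

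Counted together, the 10 genes were mostly higher in GFP+ cells of the BM and not in those of the FL. In the BM, 9 of the 10 passed the FPKM minimum, and 6 of these (*Ikzf3*, *Satb1*, *Gata3*, *Tcf7*, *Il7r* and *Notch1*) were more than 2-fold higher in GFP+ cells, where 21.1% of all 12385 genes compared were. None (0) was lower, against 19.6% of all genes. The median difference of the 9 on the log2(FPKM + 1) scale was 1.94, beside 0.12 for all genes. With samples brought to a common FPKM sum the 6 and 0 did not change, while the counts over all genes went from 2609 higher and 2428 lower to 1601 and 3377. The genes were chosen with earlier results of these data known, so the count describes them and is not evidence about lymphoid genes at large.

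In the FL, 7 of the 10 passed the FPKM minimum. None (0) was more than 2-fold higher in GFP+ cells, where 17.9% of 12134 genes were, and 2, *Flt3* and *Ikzf1*, were lower, where 26.8% were. The median difference was 0.09, beside 0.05 for all genes, and with samples at a common FPKM sum the member counts were the same while all genes went from 2171 higher and 3248 lower to 1621 and 3919. Of the 6 genes that could be compared in both tissues, 0 passed the threshold the same way in both, where 3.45% of all 10910 such genes were higher and 6.48% lower in GFP+ cells of both. Subtracting the FL from the BM difference between fractions, the gap on the log2(FPKM + 1) scale was 2.63 for *Notch1*, 2.38 for *Ikzf3*, 2.07 for *Il7r*, 2.01 for *Tcf7*, 1.55 for *Satb1* and 1.03 for *Gata3*. It was −0.36 for both *Ikzf2* and *Bcl11a*, the genes with a negative value. *Ikzf3*, *Tcf7* and *Il7r* owe it to the BM alone, since their FL levels were at or near 0 in both fractions, whereas for *Flt3* and *Ikzf1* (2.12 and 1.61) the larger part was in the FL.

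**Figure D3:**
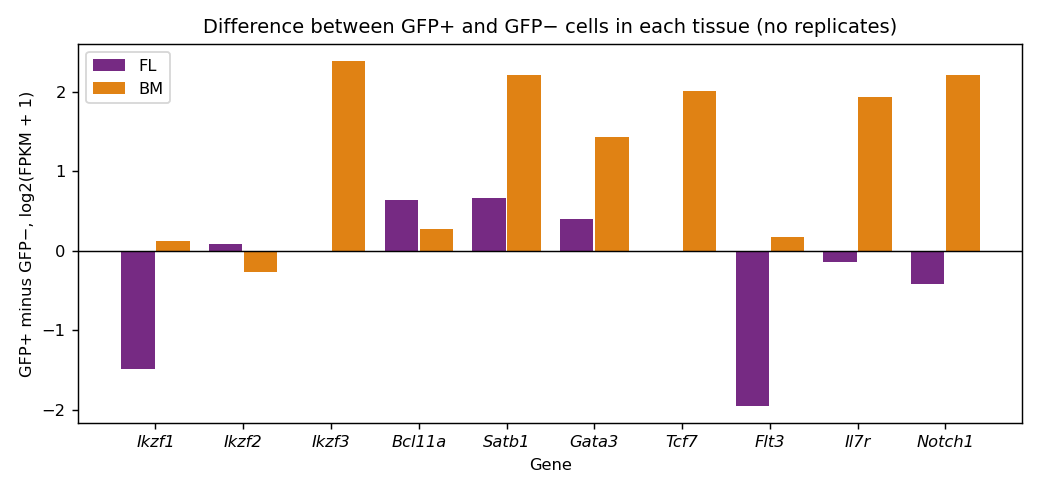
GFP+ minus GFP- difference of log2(FPKM + 1) (vertical axis) for each gene in FL (purple bars) and BM (orange bars), 1 sample per fraction and no error. Ikzf3, Satb1, Gata3, Tcf7, Il7r and Notch1 reach 1.43 to 2.38 in the BM, where Ikzf1, Flt3 and Bcl11a stay at 0.12 to 0.27 (below 0 at a common FPKM sum), and Flt3 and Ikzf1 are at −1.95 and −1.49 in the FL.

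Between the tissues, all 10 genes passed the FPKM minimum in both fractions. In GFP+ cells 7 were higher in the BM, where 33.6% of 12120 genes were, and 1, *Ikzf2*, was lower, where 25.1% were. At a common FPKM sum 6 were higher and 2 lower, as *Notch1* no longer passed the threshold and *Bcl11a* passed it, and all genes went from 4067 and 3042 to 3001 and 4565. In GFP- cells, a comparison that does not use the BM GFP+ sample, 3 genes (*Ikzf3*, *Il7r* and *Tcf7*) were higher in the BM, where 18.6% of 12703 genes were, and 2 (*Ikzf2* and *Notch1*) were lower, where 19.3% were. The same split of 3 and 2 was found at a common FPKM sum, while that of all genes went from 2360 and 2454 to 1686 and 3878. The median difference of the 10 genes was 1.71 in GFP+ cells, beside 0.15 for all genes, and 0.13 in GFP- cells, beside 0.04. Markers of mature cells were higher in the BM in both comparisons. In GFP- cells 9 of 9 B cell, 8 of 9 T cell and 9 of 9 neutrophil markers were higher and 0 lower. In GFP+ cells all 9 of each list were higher. The part of mature cells in the tissue differences of the 10 genes was not tested. Both tissue comparisons share samples with those between fractions.

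Most marker lists of mature cells were also higher in GFP+ cells of the BM, with the megakaryocyte list as the exception. Over all genes compared, 21.1% were more than 2-fold higher and 19.6% lower in BM GFP+ cells. Of the 9 B cell markers, 7 were more than 2-fold higher in BM GFP+ than in BM GFP- cells, with a median ratio of 3.53 and ratios of 1.44 to 4.28. Of the 9 T cell markers, 7 were higher and 1, *Cd28*, was lower, with a median ratio of 3.50. Of 7 NK cell markers 3 were higher, of 5 plasmacytoid dendritic cell markers 3 and of 9 neutrophil markers 5, with no primary granule gene among these 5. Of 6 macrophage markers 5 were higher, of 7 erythroid markers 4 and of 6 megakaryocyte markers 1. In the megakaryocyte list *Vwf* was lower at a ratio of 0.27, and the list median was 0.76. The ratios of *Ikzf3*, *Satb1*, *Tcf7*, *Notch1* and *Il7r* were 4.44 to 8.06, above the highest ratio in the B cell marker list. B lineage regulators, listed apart below, reached 21.5 (*Pax5*, named after its values were seen), with 7 of 12 higher and 2 lower. The highest ratios of the other marker lists differed widely. They were 2.285 (*Gp1bb*) for megakaryocyte, 4.84 (*Ly6d*) for plasmacytoid dendritic cell, 6.998 (*Cd3d*) for T cell and 7.91 (*Hba-a1*) for erythroid markers. For neutrophil, NK cell and macrophage markers they were 8.97 (*Camp*), 46.4 (*Prf1*) and 53.5 (*Fcna*). The ratio of *Gata3* lay below the medians of the B cell and T cell lists. The HSC markers above 0 in both samples had a median ratio of 0.32, and *Ly6a* (Sca1), at 1.97, was the 1 of the 10 not counted as lower. The part of mature cells in the levels of these genes was not tested. In the FL the B cell genes *Ms4a1*, *Igll1* and *Blnk* were at 0 in GFP+ cells and at most 0.0750 in GFP- cells, as *Ikzf3*, *Tcf7* and *Il7r* were at 0 or near it.

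**Figure D4:**
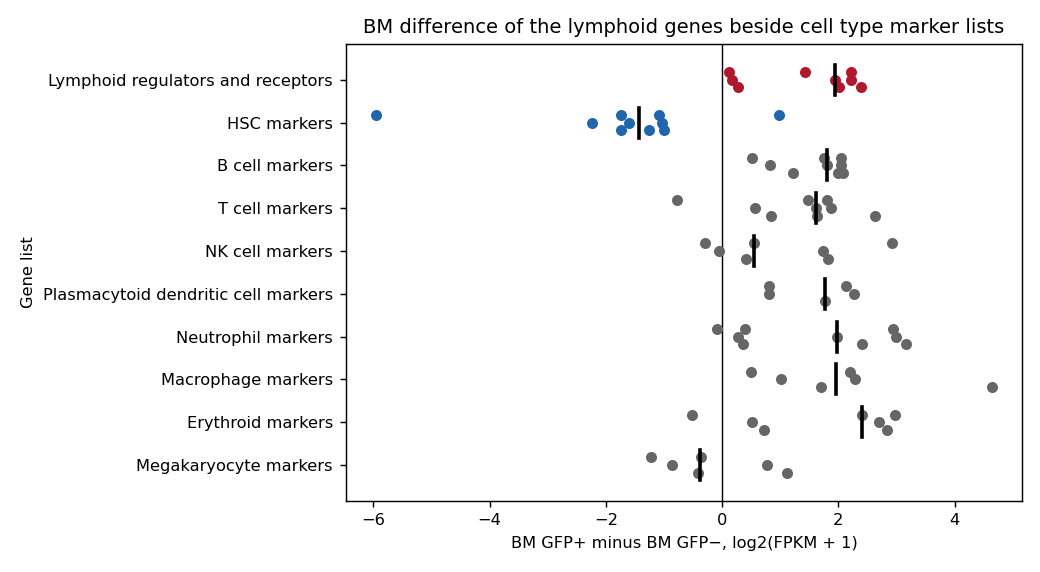
BM GFP+ minus BM GFP- difference of log2(FPKM + 1) (horizontal axis) for the lymphoid genes (red), HSC markers (blue) and markers of other cell types (grey), 1 point per gene that reached an FPKM of 1 in either BM sample; black lines are list medians. The lymphoid genes have a median of 1.94. List medians are 1.98 for neutrophil, 1.95 for macrophage, 1.80 for B cell, 1.77 for plasmacytoid dendritic cell and 1.61 for T cell markers. Erythroid markers have 2.415, NK cell markers 0.54, megakaryocyte markers −0.39 and HSC markers −1.43.

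Other genes of the pathways were read from lists of 6 groups. In each, the 3 genes with the highest mean level and those past the threshold the same way in both tissues are named. Genes added after their values were seen are marked as such. The shares over all genes, to set beside the counts, were 21.1% higher and 19.6% lower in BM GFP+ cells. In FL GFP+ cells they were 17.9% higher and 26.8% lower. Of 26 further Notch pathway genes, 8 of 20 compared were higher and 4 lower in BM GFP+ cells, and 1 of 16 was higher and 7 lower in FL GFP+ cells. The machinery that cleaves Notch was well expressed throughout: *Adam10*, the metalloprotease that makes the first cut after ligand binding, had an FPKM of 34.6 to 98.4, and *Ncstn*, which encodes a subunit of the protease that makes the next cut, had 38.6 to 56.2. The ligand gene *Jag2* was at 0 in both GFP+ samples, with 4.997 and 2.45 in the GFP- cells of the FL and BM, and the target gene *Hes5* was lower in GFP+ cells of both tissues, with 0.153 against 2.26 in the FL and 0 against 3.37 in the BM.

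Some Notch target genes, named after their values were seen, had the order of *Notch1* in the BM. *Dtx1*, which encodes a Notch regulator and target, was at 0 in the FL, and its FPKM in the BM was 16.9 in GFP+ against 2.94 in GFP- cells. *Hes1* had 7.71 and 2.59 in the BM, and 0 in FL GFP+ against 2.15 in FL GFP- cells. *Nrarp* had 4.34 and 0.895 in the BM and 0.948 and 2.66 in the FL, so that for *Notch1*, *Hes1* and *Nrarp* alike GFP+ cells had the higher value in the BM and the lower in the FL. *Hes5* had no such order.

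**Figure D5:**
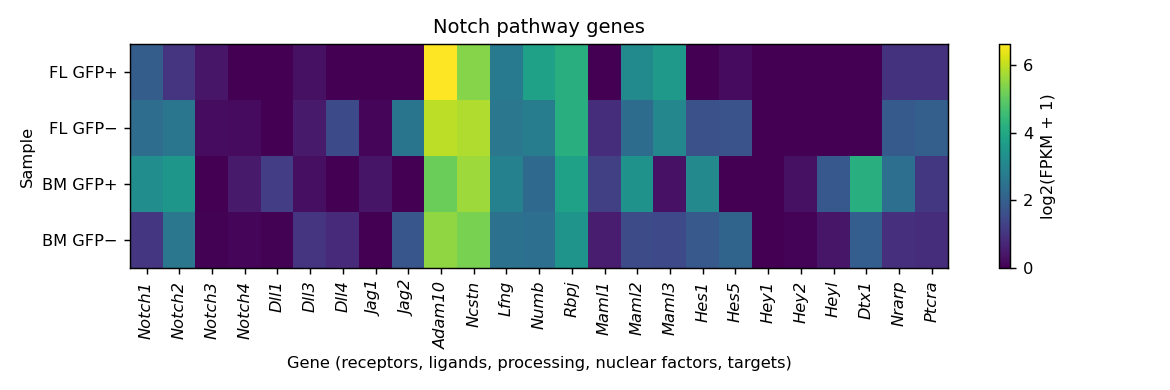
Levels of Notch1 and other Notch pathway genes (horizontal axis) in the 4 samples (rows), coloured by log2(FPKM + 1), 1 sample per row. Adam10 and Ncstn are bright in all rows, while Notch1, Hes1 and Dtx1 are brightest in BM GFP+ cells and Jag2 is at 0 in both GFP+ rows.

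Of 13 further genes of IL-7 and FLT3 signalling, 1 of 13 compared was higher and 2 were lower in BM GFP+ cells, and 1 of 12 was higher and 2 lower in FL GFP+ cells. *Il2rg*, the common gamma chain that pairs with the product of *Il7r*, had an FPKM of 111.4 to 167.3 in all samples, also in the FL, where *Il7r* was at or near 0. The Janus kinase genes were also expressed throughout, *Jak1* at 47.9 to 82.2 and *Jak3*, which binds the gamma chain, at 19.1 to 139.8 with its lowest value in BM GFP+ cells. *Tslp*, a cytokine whose receptor also uses the *Il7r* chain, passed the threshold downwards in both tissues, with 0 against 1.003 in the FL and 1.42 against 4.79 in the BM. *Bcl2*, a survival gene that IL-7 maintains in lymphocytes and named after its values were seen, had 0 and 3.24 in the GFP+ and GFP- samples of the FL, and 15.2 and 8.30 in those of the BM.

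Of 12 further regulators of T and innate lymphoid cells, 5 of 9 compared were higher and 1 lower in BM GFP+ cells, and 0 of 5 were higher and 4 lower in FL GFP+ cells. The FPKM of *Ets1* was 0.0149 and 4.14 in the GFP+ and GFP- cells of the FL, against 47.3 and 13.6 in the BM. *Nfil3*, which acts in innate lymphoid development, had 0, 3.45, 20.2 and 8.25 in the same order, and *Runx3* had 0, 3.19, 7.79 and 6.22. All of these were lowest in FL GFP+ cells, as *Flt3* and *Ikzf1* were. *Tox* was lower in GFP+ cells of both tissues, with 0.0592 against 8.0 in the FL and 1.94 against 7.39 in the BM. *Bcl11b*, the T cell commitment factor, named after its values were seen, stayed at 0 to 0.178.

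Of 13 regulators of the B lineage, 7 of 12 compared were higher and 2 lower in BM GFP+ cells, and 1 of 10 was higher and 1 lower in FL GFP+ cells. *Lmo2*, a cofactor of stem cell transcription factors, had the highest level, at 122.8 in BM GFP+ and 237.7 to 411.8 in the other samples. *Tcf3*, the gene of the E2A proteins that start the B cell programme, had 72.7 in BM GFP+ and 29.8 to 36.6 in the other samples, and *Myb* had 34.3 to 51.9. The B cell factors *Ebf1* and *Pax5*, named after their values were seen, were at 0 in the FL and had 28.7 and 71.6 in BM GFP+ against 3.15 and 3.32 in BM GFP- cells, ratios of 9.12 and 21.5.

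Of 11 early lymphoid progenitor genes, 2 of 10 compared were higher and 2 lower in BM GFP+ cells, near the shares over all genes. In the FL 0 of 6 passed the threshold. *Lsp1* had 267.3 to 308.0 in the FL, with 585.6 and 231.3 in the BM, *Cd34* 48.4 in BM GFP+ and 181.8 to 225.7 in the others, and *Cd27* 42.0 to 83.1. *Dntt*, which encodes terminal transferase, and *Rag1*, which encodes a recombinase subunit, were named after their values were seen. *Dntt* was at 0 in the FL, and the BM fractions had 33.3 (GFP+) and 52.5 (GFP-), the reverse of the order of *Il7r*, and *Rag1* was at most 0.224. Of 17 partners of Ikaros proteins, mainly subunits of the NuRD chromatin remodelling complex, 1 of 15 was higher and 2 were lower in BM GFP+ cells and 2 of 15 were higher and 1 lower in FL GFP+ cells. *Rbbp7* had an FPKM of 183.0 to 308.4, *Hdac1* of 100.5 to 204.8 and *Mta2* of 102.4 to 153.2. *Mta1* was higher in GFP+ cells of both tissues, with 10.8 against 3.63 in the FL and 6.39 against 1.77 in the BM.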

How the data were processed

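RNA from 4 LSK-SLAM samples, GFP+ and GFP- cells of FL and BM with 1 sample each, was amplified by the SMARTer protocol and sequenced by the authors. The deposited values are FPKM per gene symbol, which the authors computed with Bowtie, TopHat and Cufflinks 2.2.1, with fragment-bias and multi-read corrections in Cuffquant and geometric normalization across all samples in Cuffnorm. The methods name NCBI37/mm9 and the submitters' processing notes mm10, so no coordinates were joined to the values. The study's methods state the uniquely mapped reads of each sample, which are of similar number, but the files do not hold them, and corrected FPKM do not give back read counts per gene. Samples were grouped by their labels. Ratios used FPKM as deposited, where either sample compared reached an FPKM of 1, and log differences a pseudocount of 1. With 1 sample per group no test was run. Named genes are the 10 members, the 3 genes of highest mean level and those past 2-fold the same way in both tissues in each of 6 pathway lists, and the 3 genes nearest to *Flt3* and to *Ikzf1* among those that reached an FPKM of 5 in any sample. A result that this rule would name in the Notch list is not reported here. The members and lists were chosen with earlier results of these data known. The *Adgre1* marker of the macrophage list is not among the symbols and was not used. The alternatives were other pseudocounts, filters, thresholds and scalings. Python 3.11.15 with numpy 2.4.6, pandas 2.3.3 and matplotlib 3.10.9 was used, and the counting code was tested on simulated data.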

Additional observations from a re-analysis of the deposited data

Results flagged for a closer look

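The GFP+ to GFP- difference of 3 genes had opposite signs in FL and BM, with 1 sample behind each value, and the difference between tissues was not tested. On the log2(FPKM + 1) scale *Notch1* had −0.42 (FL) and 2.21 (BM), a gap of 2.63. For *Flt3* it was −1.95 and 0.18, a gap of 2.12, and for *Ikzf1* −1.49 and 0.12, a gap of 1.61. For *Flt3* and *Ikzf1* the BM value turned negative, −0.27 and −0.32, when samples were rescaled to the same FPKM total, so that opposite signs were seen for *Notch1* under every scaling tried but not for these.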

How the results depend on the processing

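No member that passed the 2-fold threshold changed its direction under the pseudocount of 0.1 or the 3 rescalings. A 1.5-fold threshold raised the members past it in the FL from 2 to 4 and those past it the same way in both tissues from 0 to 1 (*Satb1*), and a 4-fold threshold left 1 in the FL. With a minimum FPKM of 5 in either sample, the members past 2-fold between the GFP- fractions of the tissues went from 5 to 2, as only 5 could be compared. The other counts stayed within 1.5 times. Of 200 single values recomputed, 11 changed sign, all of them under a rescaling and none past the threshold, and 17 moved by more than 1.5-fold, 14 of them with the pseudocount of 0.1. Rescaling to the same FPKM total moved the median of all genes by −0.25 between fractions of the FL, −0.42 between those of the BM, −0.56 between the GFP+ and −0.40 between the GFP- cells of the tissues, and scaling to the upper quartile by −0.21, −0.10, −0.04 and −0.15 in that order. No paired analysis was possible because each group has 1 sample.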
